A study of Rattus norvegicus with 3 samples.

Results

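The 10 genes described here encode adaptors, kinases and effectors of cell death that starts at death receptors or inflammasomes. They are Tnfrsf1a, Tradd, Fadd, Cflar, Ripk1, Ripk3, Mlkl, Pycard, Casp1 and Gsdmd. They were chosen by gene symbol from knowledge of the pathways, with earlier results of these data known. Their shares past a threshold are therefore not those of a choice blind to the data. All 10 were found among the 18425 genes of the deposited expression table. Their RNA was measured in 3 retina libraries of wild-type Sprague Dawley rats. Each eye received 1 µl into the vitreous at postnatal day 1 (P1), and retinas were taken at P4. The injected fluid was citrate buffer of pH 4.5, saline, or 10 µg of streptozotocin (STZ) made up in citrate buffer. Each condition is 1 library, and how many retinas or animals went into a library is not stated in the sources used here. The study describes buffer in the left eye of animals whose right eye received STZ, but whether the sequenced retinas were such pairs is not stated, and saline eyes are not described that way. Within these libraries the spread between animals is therefore unknown, no difference has a replicate check, and no p-value is given.

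Tumour necrosis factor (TNF) receptor 1, the product of Tnfrsf1a, recruits the adaptor TRADD and the kinase RIPK1 when it binds TNF. FADD then brings in caspase-8, which starts apoptosis unless cFLIP, the product of Cflar, holds it back. Where caspase-8 is blocked, RIPK1 binds the kinase RIPK3, which phosphorylates MLKL, and MLKL breaches the plasma membrane in the form of death called necroptosis. Inflammasomes are a separate route. Their sensors assemble on the adaptor ASC, encoded by Pycard, which activates caspase-1, and caspase-1 cleaves gasdermin D into a pore-forming fragment and processes interleukin-1β and interleukin-18. Microglia, the resident macrophages of the retina, are well known to hold inflammasome components.

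Levels are given as FPKM (fragments per kilobase of transcript per 1000000 reads), which can be compared between genes, and as read counts, which carry the counting error. The libraries held 21992702 (buffer), 21977843 (saline) and 22031249 (STZ) counted reads. The retinal genes Pax6 (12271, 12506 and 12605 reads in buffer, saline and STZ), Crx (12972, 11780 and 13849) and Nrl (5877, 5504 and 7003) were abundant in each library, as the labelled tissue requires. Summed counts of the markers of other tissues ranged more widely. Lens genes had 290, 639 and 2980 counts in buffer, saline and STZ, pigment epithelium genes 500, 1855 and 543, ciliary and iris genes 2344, 8395 and 2288, astrocyte genes 493, 604 and 286, and erythroid genes 464, 590 and 343. The lens counts in STZ were mostly of crystallin genes, such as Cryaa (55, 211 and 928) and Cryba1 (22, 62 and 731). Mip (73, 73 and 86), Bfsp1 (50, 105 and 90) and Bfsp2 (29, 35 and 49) differed less. Lim2 (1, 8 and 9) and Grifin (2, 10 and 13) had few reads. Endothelial genes had 14244, 15534 and 10599 counts, mostly of Kdr (13149, 14564 and 9972), and their median count ratio in STZ against buffer was 0.405, with Cdh5 at 119, 114 and 28 reads and Cldn5 at 188, 154 and 37. The part of these tissues and cell types in the results below was not tested.

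In the STZ library, the inflammasome genes Pycard, Casp1 and Gsdmd and the necroptosis kinase gene Ripk3 had more reads than in either control library. Tnfrsf1a, Tradd, Fadd and Ripk1 showed no difference beyond counting error between the libraries, with the narrowest bounds for Ripk1. Cflar had fewer reads in buffer than in saline or STZ, and Mlkl was close to undetected in each library. A fold here is (FPKM + 1)/(FPKM + 1), the formula of the study's methods, which draws the folds of weakly expressed genes toward 1. A gene counts as past the thresholds of those methods when its log2 fold lies above 0.62 or below -0.62. By this rule 3 of the 10 genes were higher in STZ against buffer (Pycard, Casp1 and Gsdmd) and 0 were lower, where 2.25% of all genes were higher and 1.04% lower. Against saline, 2 of the 10 were higher (Pycard and Casp1) and 0 lower, where 2.04% of all genes were higher and 1.75% lower. In saline against buffer none of the 10 passed in either direction, where 1.0% of all genes were higher and 0.429% lower. Both STZ comparisons use the same STZ library, so they are not independent of each other.

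The second measure is the count ratio, the share of a library's reads that a gene took, divided by the same share in the control library, with an exact Clopper-Pearson 95% interval. The interval covers counting error only, and it compares the libraries, not the conditions. In STZ against buffer the interval excluded 1 on the higher side for 5 of the 10 genes (Ripk3, Cflar, Pycard, Casp1 and Gsdmd) and on the lower side for 0, and it did so for 21.7% and 15.5% of all genes. In STZ against saline it was 4 genes higher (Ripk3, Pycard, Casp1 and Gsdmd) and 0 lower, with 22.1% and 19.5% of all genes. In saline against buffer it was Cflar alone, higher, and 0 lower, with 13.3% and 9.81% of all genes. The median log2 fold of STZ over the 10 genes was 0.25 with buffer as control and 0.19 with saline, and between the controls it was 0.06. Over all genes these medians were 0.02, 0.0 and 0.01.

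**Figure D1:**
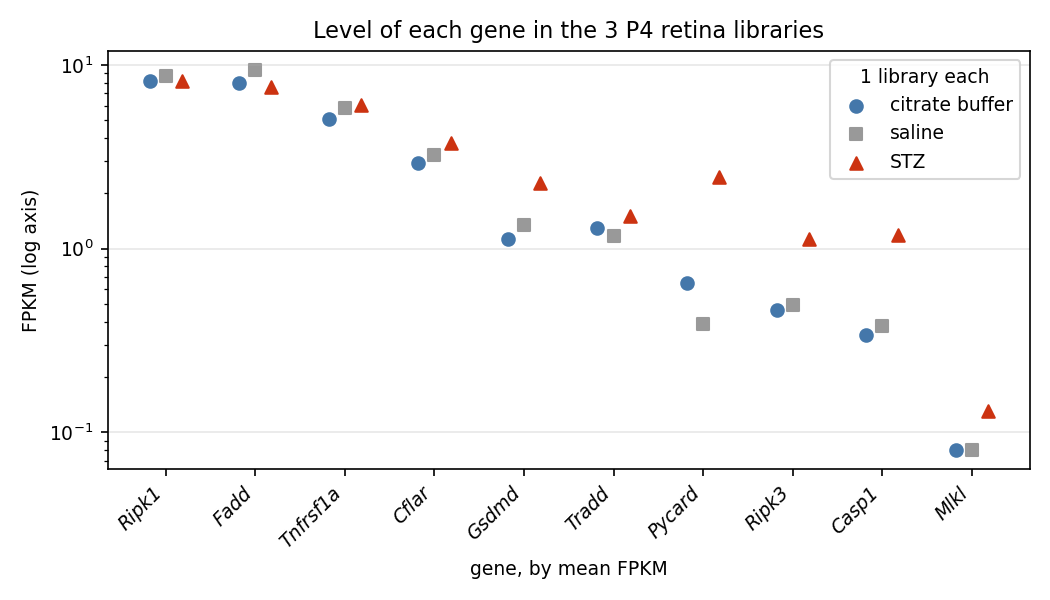
FPKM of each of the 10 genes (vertical axis, log scale) in the citrate buffer, saline and STZ libraries, 1 point per library and no error bars because each condition is 1 library. Gsdmd, Pycard, Ripk3 and Casp1 stand apart in STZ at 2.27, 2.45, 1.13 and 1.18 FPKM, while Ripk1 lies between 8.19 and 8.71 FPKM in all 3.

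The levels of the 10 genes differed widely within each library. In buffer the order was Ripk1 (8.19 FPKM), Fadd (7.97), Tnfrsf1a (5.09), Cflar (2.94), Tradd (1.3), Gsdmd (1.12), Pycard (0.65), Ripk3 (0.46), Casp1 (0.34) and Mlkl (0.08). Judged by exact Poisson 95% intervals of the counts, Ripk1 and Fadd could not be told apart, and neither could any neighbours from Tradd down to Mlkl. These intervals do not cover error in the transcript length behind an FPKM. The length implied by FPKM and count in buffer was 485 bases for Fadd, 350 for Pycard and 4303 for Ripk1. In saline the same upper genes led, with Fadd at 9.41 and Ripk1 at 8.71 FPKM overlapping, and the counting intervals of Tradd (1.17) and Ripk3 (0.49) did not overlap. In STZ, Pycard stood at 2.45 FPKM, between Cflar (3.76) and Gsdmd (2.27), with overlapping intervals on both sides. Mlkl stayed last at 0.13 FPKM, and there its interval lay apart from that of its neighbour Ripk3 at 1.13 FPKM. Against the whole transcriptome these are genes of middle to low level: in buffer, 51.7% of all genes had a lower FPKM than Ripk1, 22.5% a lower one than Casp1 and 13.2% a lower one than Mlkl.

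Of the receptor and its adaptors, none passed the fold thresholds in any comparison. Tnfrsf1a had 219 reads in buffer, 251 in saline and 260 in STZ (5.09, 5.8 and 6.08 FPKM). The libraries thus lay close together, with STZ highest, and the count ratio was 1.19 (0.986 to 1.43) against buffer and 1.03 (0.865 to 1.23) against saline. Tnfrsf1b, the second TNF receptor and the one typical of immune cells, had 15, 33 and 40 reads, and the FPKM of Tnfrsf1a exceeded it 19.6 times in buffer, 10.4 times in saline and 8.94 times in STZ. Saline and STZ were close for Tnfrsf1b, with a count ratio of 1.21 (0.744 to 1.98), and buffer was the low library.

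Tradd, the adaptor that binds the death domain of the receptor, had 37 reads in buffer, 33 in saline and 43 in STZ (1.3, 1.17 and 1.51 FPKM). Its count ratio was 1.16 (0.73 to 1.85) against buffer and 1.3 (0.807 to 2.11) against saline, so neither a modest increase nor a modest decrease can be told from no difference at this depth. Tradd overlaps Phaf1 in the RefSeq annotation, a gene with 715, 827 and 754 reads, and because the strand used in counting is not stated, some reads may belong to either gene.

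Fadd, the adaptor that links death receptors to caspase-8, had 85 reads in buffer, 100 in saline and 81 in STZ (7.97, 9.41 and 7.58 FPKM). Saline was the highest library and STZ the lowest. The count ratio was 0.951 (0.693 to 1.31) against buffer and 0.808 (0.595 to 1.09) against saline, and in saline against buffer it was 1.18 (0.873 to 1.59).

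Cflar, whose product restrains caspase-8, had 194 reads in buffer, 240 in saline and 237 in STZ. Buffer was the low library and saline and STZ were level. The count ratio was 1.22 against buffer, with an interval from 1.0 to 1.48 whose lower bound lies just above 1, it was 0.985 (0.82 to 1.18) against saline, and saline against buffer gave 1.24 (1.02 to 1.5). The FPKM order was different, at 2.94, 3.22 and 3.76, because the transcript length implied by the deposited FPKM and count of Cflar differed between libraries, at 3000 bases in buffer, 3391 in saline and 2861 in STZ. For Cflar the counts and the FPKM thus give different answers on STZ against saline, with ratios of 0.985 and 1.17, and with 1 length per gene the fold of 1.13 turned to 0.988. Casp8, which lies next to Cflar and overlaps it in the annotation, had only 15, 21 and 18 reads, and the FPKM of Cflar was 8.17, 5.96 and 8.95 times that of Casp8 in buffer, saline and STZ.

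Ripk1, the kinase shared by survival, apoptosis and necroptosis signalling, was the most precisely measured of the 10. It had 775 reads in buffer, 823 in saline and 774 in STZ (8.19, 8.71 and 8.2 FPKM). The STZ and buffer libraries differed by 1 read, and the count ratio of 0.997 had an interval from 0.901 to 1.1. Against saline it was 0.938 (0.849 to 1.04). Serpinb6a, with 57, 75 and 88 reads, overlaps Ripk1 in the annotation.

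Ripk3, the kinase that acts on MLKL, had 18 reads in buffer, 19 in saline and 44 in STZ (0.46, 0.49 and 1.13 FPKM). Both controls were level and STZ was higher than either. The count ratio was 2.44 (1.38 to 4.49) against buffer and 2.31 (1.32 to 4.19) against saline, and saline against buffer gave 1.06 (0.525 to 2.13). The folds of 1.46 and 1.43 stayed under the upper threshold on the FPKM + 1 scale, where the ratio of the FPKM themselves was 2.46 and 2.31. With the deposited TPM the folds were 1.68 and 1.64, and with 0.1 added in place of 1 they were 2.2 and 2.08. All 4 lie above the threshold, but more of all genes passed under these settings too. The FPKM of Ripk1 was 17.8 times that of Ripk3 in buffer and in saline, and 7.26 times in STZ. Nfatc4, which overlaps Ripk3, had 74 reads in buffer, 107 in saline and 75 in STZ, and so did not share the pattern.

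Mlkl, the executioner of necroptosis, had 3 reads in buffer, 3 in saline and 5 in STZ (0.08, 0.08 and 0.13 FPKM). The count ratio of 1.66 against buffer had an interval from 0.324 to 10.7, and no ratio is given between the controls because both are at 3 reads. A difference in Mlkl was not detectable at this depth. Among these genes of necroptosis the STZ library therefore differed from both controls in Ripk3, not detectably in Mlkl, and in Ripk1 by no more than the bounds above.

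Pycard, the inflammasome adaptor, had 5 reads in buffer, 3 in saline and 19 in STZ (0.65, 0.39 and 2.45 FPKM). It had the largest fold of the 10 genes, 2.09 against buffer and 2.48 against saline. The counts behind it are few, so the count ratio of 3.79 against buffer had an interval from 1.37 to 13.0, and that of 6.32 against saline one from 1.86 to 33.3. The mean of 9 reads also put Pycard under the minimum of 10 used as an alternative filter.

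Casp1, the protease of the inflammasome, had 8 reads in buffer, 9 in saline and 28 in STZ (0.34, 0.38 and 1.18 FPKM). The controls were level and STZ stood above both. The fold was 1.63 against buffer and 1.58 against saline, and the count ratio was 3.49 (1.55 to 8.87) and 3.1 (1.42 to 7.48).

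Gsdmd, the pore-forming substrate of caspase-1, had 53 reads in buffer, 63 in saline and 100 in STZ (1.12, 1.34 and 2.27 FPKM). STZ was again the highest library, and saline lay slightly above buffer. The count ratio was 1.88 (1.34 to 2.68) against buffer, 1.58 (1.14 to 2.21) against saline and 1.19 (0.812 to 1.75) between the controls. The fold against buffer, 1.542, sat directly on the upper threshold, and it was 1.52 with TMM or DESeq2 scaling and 1.47 with 1 length per gene in all libraries or against the mean of both controls, all of which end the call. It was 1.7 with the deposited TPM and 1.94 with 0.1 added in place of 1, which keep the call. More of all genes passed under these settings too. The length implied for Gsdmd was 2152 bases (buffer), 2139 (saline) and 2000 (STZ). The FPKM of Gsdmd was 3.29, 3.53 and 1.92 times that of Casp1 in buffer, saline and STZ.

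**Figure D2:**
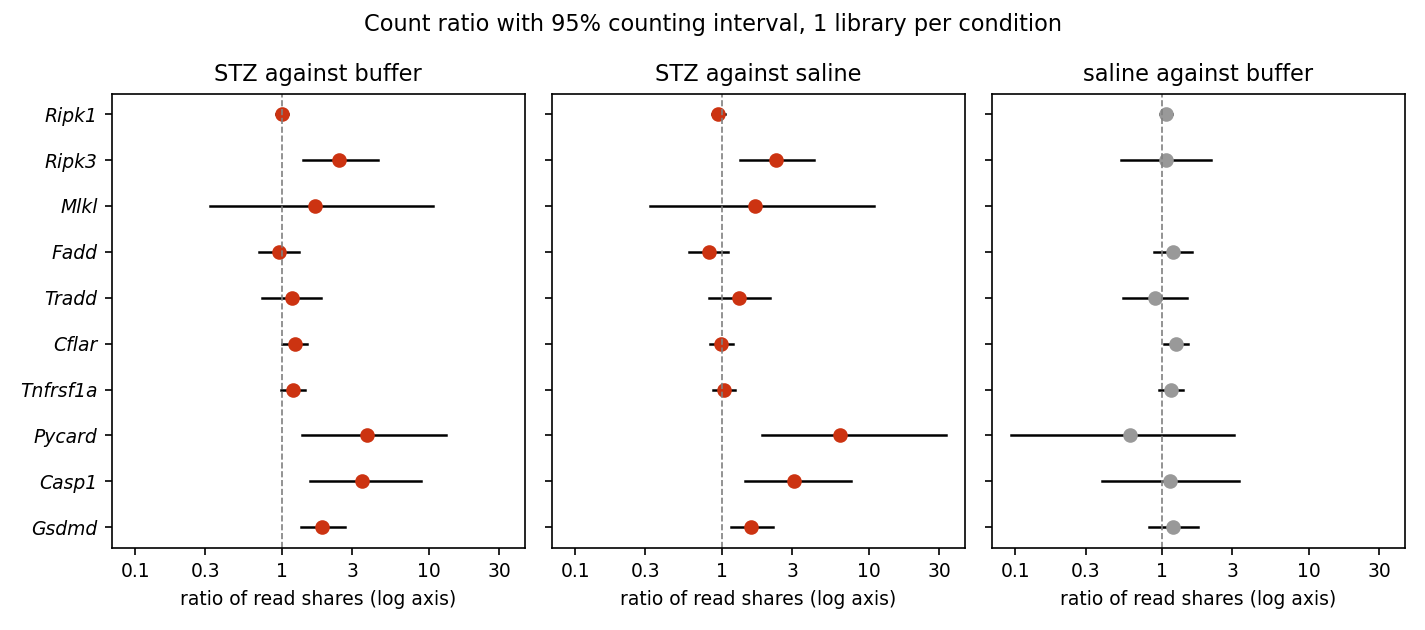
Count ratio of each gene (horizontal axis, log scale) in 3 panels (STZ by buffer, STZ by saline, saline by buffer), where points are ratios of read shares and lines are exact 95% counting intervals. In both STZ panels the intervals of Ripk3, Pycard, Casp1 and Gsdmd lie above 1 and those of Ripk1, Fadd, Tradd and Tnfrsf1a include 1, and the ratio of Mlkl between the controls is left out because both are at 3 reads.

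**Figure D3:**
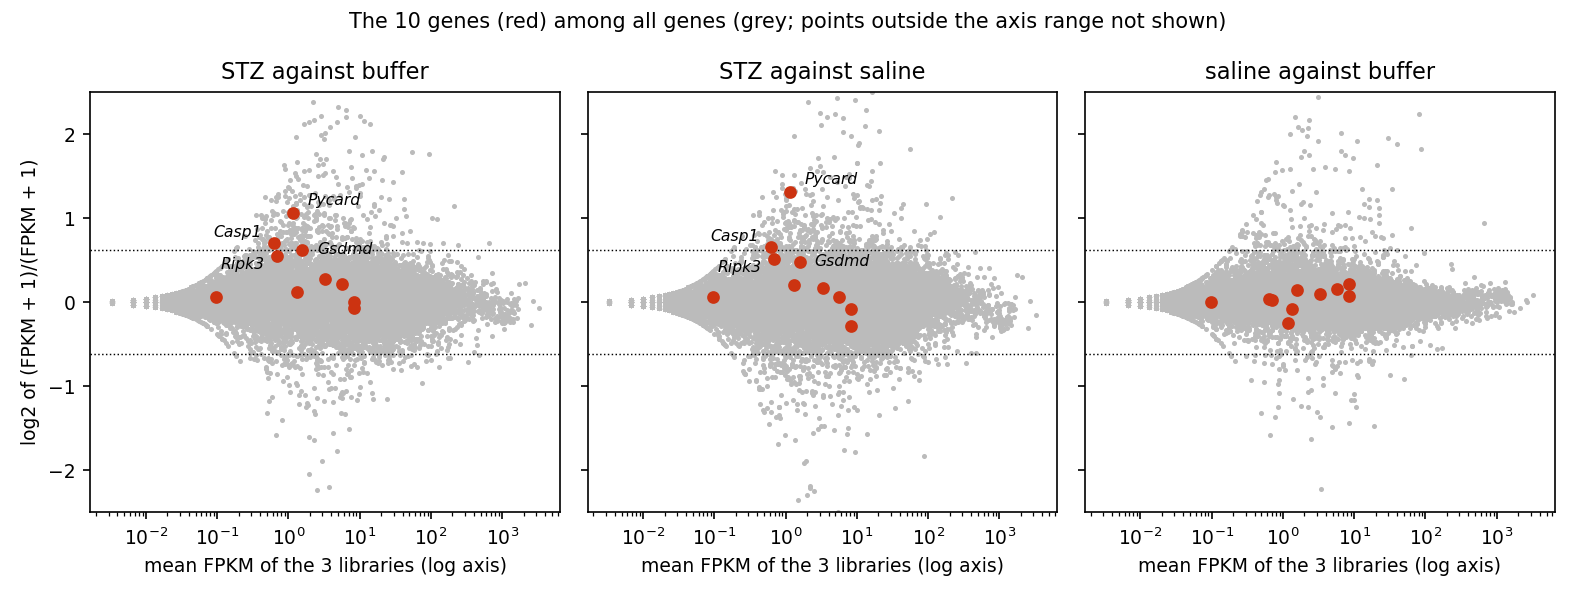
log2 fold on the FPKM + 1 scale (vertical axis) against mean FPKM of the 3 libraries (horizontal axis, log scale) for all genes in grey and the 10 genes in red, with dotted lines at the thresholds. Pycard and Casp1 lie above the upper line in both STZ panels, Gsdmd lies on it against buffer, and all 10 red points lie between the lines in saline against buffer.

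Reads of microglia genes were also more numerous in the STZ library. Of 18 microglia markers 17 were measured, and 13 were higher and 0 lower past the fold thresholds in STZ against buffer, likewise 13 and 0 against saline, with 1 higher in saline against buffer. Their summed counts were 2955 (buffer), 3150 (saline) and 4896 (STZ), none of the 17 was at 0, and the median count ratio of STZ was 2.6 against buffer (range 0.755 to 5.34) and 2.45 against saline (range 0.779 to 3.27). Aif1, which encodes the microglial protein IBA1, had 86, 95 and 273 reads, the fractalkine receptor gene Cx3cr1 82, 71 and 233, the purinergic receptor gene P2ry12 81, 78 and 129, Tmem119 56, 49 and 127, Csf1r 449, 540 and 905, and the leukocyte gene Ptprc 41, 46 and 113. The low end of both ranges was 1 marker, Olfml3, with 1233, 1194 and 932 reads. Every other marker had a count ratio of 1.59 or more against buffer. The ratios of all 10 genes lay within the range against buffer. Those of Ripk1, Fadd, Tradd, Cflar and Tnfrsf1a did so only because of Olfml3 and lay below every other marker. Against saline the ratio of Pycard, 6.32, lay above the range. The neutrophil and monocyte markers had 99, 235 and 504 summed reads, of which Lyz2, a gene of macrophages too, gave 86, 195 and 456. Cd14 had 12, 31 and 39 reads, S100a9 0, 5 and 4, S100a8 0, 2 and 3, Ly6c 1, 2 and 1, and Mpo 0, 0 and 1. Of these 6 measured markers, 4 were higher and 0 lower past the fold thresholds in STZ against buffer. Against saline 1 was higher and 0 lower, and in saline against buffer 3 were higher and 0 lower. The part of microglia or other myeloid cells in the result was not tested. In RNA of a whole retina, more cells of a type and more RNA per cell cannot be told apart.

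The genes whose counts most resembled Pycard and Casp1 were sought among the 12792 genes averaging 50 or more reads, by the distance between their log2 count ratios of saline and STZ to buffer. Nearest to Pycard were Gpr34 (49, 28 and 159 reads in buffer, saline and STZ), C3ar1 (31, 22 and 112) and Gbp2 (27, 23 and 109), at distances of 0.24, 0.25 and 0.51. Nearest to Casp1 were Anxa3 (220, 253 and 773), the cell cycle inhibitor gene Cdkn1a (434, 449 and 1496) and Aif1 (86, 95 and 273), at 0.03, 0.12 and 0.14. A pattern over 3 libraries holds only 2 ratios, so many genes can lie near it.

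The start regions of the genes that were higher in STZ are shown so that their sequences can be compared. RefSeq held a promoter window, 250 bases before to 50 bases after the start, for 8 of the 10 genes, without Gsdmd and Tradd. The windows of Casp1 (chr8:10872580-10872879, plus strand), Pycard (chr1:192033370-192033669, minus strand) and Ripk3 (chr15:33261976-33262275, minus strand) are given in the assembly GRCr8, 5′ to 3′ on the strand of the gene, with motif matches in capitals.
Casp1: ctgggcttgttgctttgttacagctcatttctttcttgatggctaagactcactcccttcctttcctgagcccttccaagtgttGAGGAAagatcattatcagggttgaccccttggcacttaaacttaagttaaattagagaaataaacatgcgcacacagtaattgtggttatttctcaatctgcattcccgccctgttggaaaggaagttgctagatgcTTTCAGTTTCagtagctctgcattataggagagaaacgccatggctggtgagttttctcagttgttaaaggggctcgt
Pycard: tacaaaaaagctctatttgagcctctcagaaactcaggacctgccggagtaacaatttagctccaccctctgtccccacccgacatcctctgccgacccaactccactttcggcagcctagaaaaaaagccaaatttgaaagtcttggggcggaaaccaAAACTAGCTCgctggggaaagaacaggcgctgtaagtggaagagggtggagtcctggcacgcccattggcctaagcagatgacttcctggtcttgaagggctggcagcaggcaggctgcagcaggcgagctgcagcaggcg
Ripk3: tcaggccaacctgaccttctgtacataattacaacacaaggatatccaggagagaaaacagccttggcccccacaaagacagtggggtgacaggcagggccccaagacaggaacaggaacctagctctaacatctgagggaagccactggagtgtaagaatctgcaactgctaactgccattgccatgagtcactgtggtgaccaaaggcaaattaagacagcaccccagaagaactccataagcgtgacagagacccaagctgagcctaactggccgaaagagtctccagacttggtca
In Casp1 the capitals mark a PU-box (GAGGAA), first base 166 bases before the start, and on the minus strand an interferon-stimulated response element core, beginning 28 bases before it. In Pycard they mark a 10-base p53 half-site that begins 91 bases before the start, and in Ripk3 no motif searched was present. Both strands of 33469 promoter windows were searched. The interferon element core was in 3.92% of them and in Casp1 and Cflar of the 8, and the PU-box in 27.6% and in Casp1 and Fadd. The p53 half-site was in 7.98% and in Cflar and Pycard, and an NF-kB motif in 7.51% and in Fadd. No match was in the windows of Ripk1, Mlkl or Tnfrsf1a. A match is a run of letters in this window and was not tested as a binding site.

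The wider pathways were followed in 4 lists with 85 measured genes, apart from the 10. Past the fold thresholds, 4 of the 85 were higher in STZ against buffer and 2 against saline, 0 were higher between the controls, and 0 were lower in each, shares to be read against the background percentages given above. By the counting interval, 27 were higher and 10 lower in STZ against buffer, 19 and 14 against saline, and 13 and 7 between the controls. Of all genes, 21.7% were higher and 15.5% lower by the interval in STZ against buffer. The shares were 22.1% and 19.5% against saline, and 13.3% and 9.81% between the controls.

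Of the TNF family receptors and ligands, 14 of 15 were measured, and 2 were higher in STZ against buffer. Eda2r, a TNF family receptor for an isoform of ectodysplasin, had 19 reads in buffer, 6 in saline and 173 in STZ, with folds of 3.18 and 3.94 and count ratios of 9.09 (5.65 to 15.5) and 28.8 (12.9 to 79.5). STZ was thus the only high library for Eda2r. The other was Tnfrsf12a, the receptor of TWEAK, with 14, 26 and 35 reads, where saline lay between and the count ratio of STZ against saline was 1.34 (0.786 to 2.32). Ngfr, the neurotrophin receptor with a death domain and the most highly expressed of the list, had 1987, 1906 and 1323 reads, and its folds of 0.675 and 0.702 stayed inside the lower threshold of 0.65. Tnfrsf21 had 407, 471 and 433 reads and Tnfsf12, which encodes TWEAK, 68, 77 and 99. Fas, a death receptor that signals through FADD, had 3, 5 and 28 reads and its ligand gene Faslg 53, 95 and 62, while Tnf had 2, 1 and 3. Tnfrsf10b, another death receptor gene of the list, went the other way with 25, 23 and 8 reads. Its count ratio was 0.319 (0.125 to 0.731) against buffer and 0.347 (0.134 to 0.804) against saline. These last were picked after their values were seen.

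None of the 24 measured genes of the TNF receptor 1 complex and its downstream kinases passed the fold thresholds in any comparison, and their median log2 fold was -0.01 against buffer and against saline among those with a mean of at least 10 reads. The most highly expressed were Map3k7, which encodes the kinase TAK1 (3181, 3365 and 3549 reads in buffer, saline and STZ), Tab2, its binding partner (2787, 3031 and 2633), and Rbck1, a subunit of the linear ubiquitin ligase (1403, 1484 and 1537). The highest count ratio in this list against buffer was 1.5 and the lowest was 0.718, that of Ikbkg, which encodes the NEMO subunit of the IκB kinase complex.

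None of the 17 necroptosis partners passed either. Hsp90aa1, a chaperone of which RIPK1 and RIPK3 are clients, had 37191 reads in buffer, 35732 in saline and 47562 in STZ, and its count ratio of 1.28 (1.26 to 1.29) against buffer was narrow because of its depth. Hsp90ab1 had 24790, 23853 and 25709 reads, and Ppm1b, a phosphatase, 5308, 4926 and 4818. The sensor gene Zbp1, which can engage RIPK3, had 2, 2 and 4 reads.

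Of 32 inflammasome and pyroptosis genes 30 were measured, and 2 were higher in STZ against buffer. Il18, which encodes a cytokine that caspase-1 matures, had 5 reads in buffer, 8 in saline and 24 in STZ, with folds of 2.22 and 1.85 and count ratios of 4.79 (1.79 to 16.1) and 2.99 (1.3 to 7.71). It is the 1 gene of this list past the thresholds against both controls. The DNA sensor gene Aim2 had 22, 31 and 49 reads, with folds of 1.56 against buffer and 1.29 against saline. Nlrp3, a sensor that assembles on ASC, had 36, 39 and 79 reads and folds of 1.34 and 1.32, under the threshold, with count ratios of 2.19 (1.46 to 3.35) and 2.02 (1.36 to 3.05). Il1b, the other cytokine substrate of caspase-1, had 5, 6 and 3 reads, too few to tell the libraries apart. The most highly expressed genes of the list were Dpp8 (6673, 6879 and 6236 reads) and Dpp9 (2730, 2613 and 2710), proteases that hold NLRP1 in check, and Txnip (2360, 2401 and 2614), a binding partner of thioredoxin. All 3 had count ratios between 0.904 and 1.11 in the STZ comparisons.

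**Figure D4:**
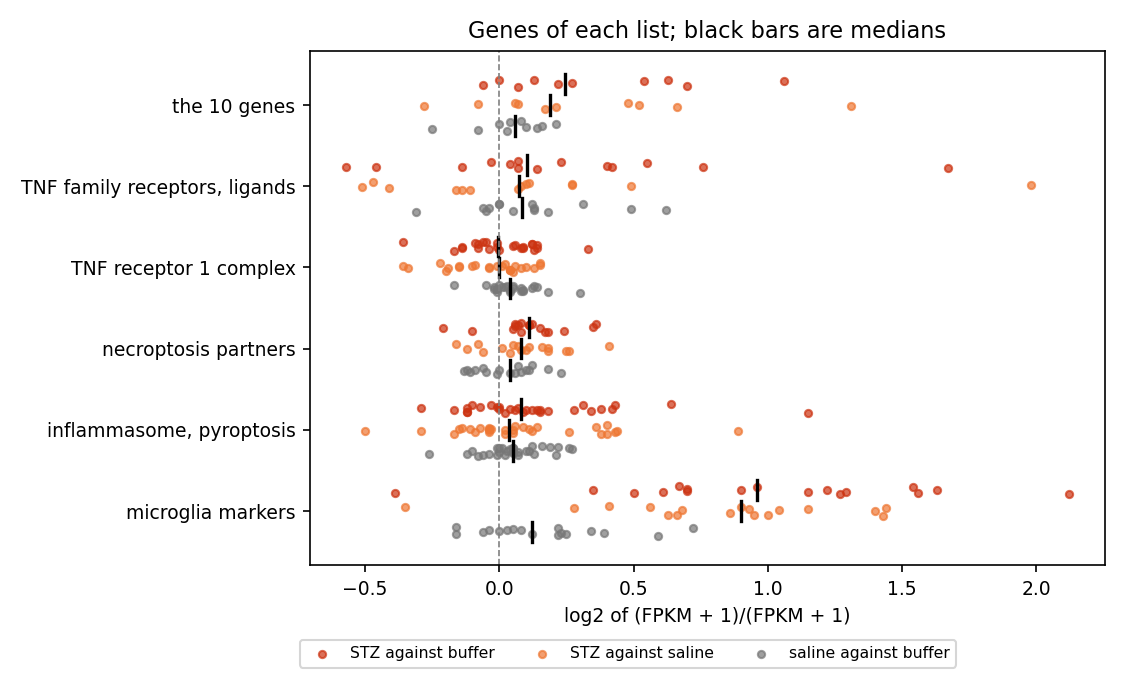
log2 fold on the FPKM + 1 scale (horizontal axis) of each gene of the 10, of the 4 pathway lists and of the microglia markers, for STZ by buffer, STZ by saline and saline by buffer, with black bars at the medians. The microglia markers have medians of 0.96, 0.9 and 0.12, the 10 genes 0.25, 0.19 and 0.06, and the complex of TNF receptor 1 lies around 0.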

How the data were processed

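Total RNA of dissected retinas was sequenced as TruSeq cDNA libraries. The authors assessed reads with FastQC, trimmed poor-quality bases, aligned the reads with TopHat2 at up to 2 mismatches, discarded reads with several genomic locations and computed FPKM with a custom R script. The submitters' processing notes name the build rn6, and the annotation and counting strand are not given in the sources used here. The authors deposited FPKM, TPM and estimated counts for 18425 genes. The estimated counts are fractional for 2858 genes (15.5%) and were rounded to whole numbers, and those of the 10 genes are whole. A gene was called at a fold above 1.54 or below 0.65, as in the study's methods, with a pseudocount of 1 on FPKM.

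Count ratios use the library totals, with exact Clopper-Pearson 95% intervals, and no ratio was given where both libraries had 3 counts or fewer. Without molecular identifiers, reads may be copies of 1 molecule, and intervals cover counting error only. Samples were grouped by the treatment label. The 10 genes, the gene lists and the motifs were chosen with earlier results of these data known. Genes named are the 10; of each pathway list those averaging 10 or more counts that passed the thresholds against both controls, and the 3 with the highest mean FPKM; 6 microglia markers; and the 3 nearest patterns to Pycard and Casp1. Others named were chosen after their values were seen, among them Tnfrsf1b, Casp8, Kdr, Cdh5, Cldn5, Pax6, Crx, Nrl, Olfml3, Tnfrsf12a, Fas, Faslg, Tnfrsf10b, Tnf, Ikbkg, Zbp1, Aim2, Nlrp3 and Il1b. All 10 gene identifiers were found in RefSeq GRCr8, which gave promoters and overlaps only.

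As alternatives, a pseudocount of 0.1, fold limits of 2 and 0.5, a minimum mean count of 10, the deposited TPM, TMM factors (edgeR 4.0.16) or DESeq2 1.42.0 size factors in R 4.3.3, genes with whole counts, the mean of both controls, the counting interval, and 1 length per gene were tried, the last chosen after seeing the data. No count model was fitted. Python 3.11.15 with numpy 2.4.6, pandas 2.3.3, scipy 1.17.1 and matplotlib 3.10.9 was used, and calculations were tested on simulated data.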

Additional observations from a re-analysis of the deposited data

How the results depend on the processing

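No paired analysis was possible because each condition is 1 library, and for the same reason no replicate could be left out. As reported, 3, 2 and 0 of the 10 genes passed the thresholds in the STZ comparisons with buffer and with saline and between the controls, as did 606, 697 and 264 of all genes, 4, 2 and 0 of the 85 pathway genes and 13, 13 and 1 of the microglia markers. Of 116 such counts under an alternative, 79 stayed within 1.5 times of these and 37 did not. With thresholds of 2 and 0.5, 1 of the 10 genes passed in each STZ comparison, with 218, 215 and 100 of all genes, 2 and 1 pathway genes in the STZ comparisons, and 8, 5 and 0 microglia markers. With a pseudocount of 0.1, 4 of the 10 passed against saline, with 2263, 2535 and 1654 of all genes, 17, 15 and 7 pathway genes, and 3 microglia markers in saline against buffer. By the counting interval it was 5, 4 and 1 of the 10, 6858, 7660 and 4258 of all genes, 37, 33 and 20 pathway genes, and 3 microglia markers in saline against buffer. With TPM it was 1088 of all genes against saline and 480 between the controls, 9, 10 and 2 pathway genes, and 2 microglia markers between the controls. A mean of at least 10 counts left 1 of the 10 against saline, since Pycard has fewer. The mean of both controls left 2 pathway genes in STZ against it, and genes with whole counts gave 147 of all genes between the controls. The cause of these shifts was not tested. All 228 values of single genes under an alternative moved by less than the counting error of the gene's count ratio, and no called one changed sign. That limit is wide for genes with few reads, and the alternatives reuse the same counts, so staying within it says little about robustness. The fold of Pycard against saline went from 2.48 to 5.2 with a pseudocount of 0.1 and stayed within it. So did the fold of Cflar against saline, which went from 1.13 to 0.988 with 1 length per gene. Depth limits Mlkl, Pycard and Casp1 most, with 3 to 28 reads per library.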

Other observations

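The transcript length implied by the deposited FPKM and count of a gene was close to constant between libraries for most of the 10 genes, at 4303, 4299 and 4284 bases for Ripk1 in buffer, saline and STZ and at 1070, 1078 and 1077 bases for Casp1. It was 3000, 3391 and 2861 bases for Cflar and 2152, 2139 and 2000 bases for Gsdmd. Among the 12815 genes averaging 50 or more counts, the implied length differed by over 5% between libraries for 1121, or 8.75%. How the lengths were set is not given in the sources used here. With 1 length per gene in all libraries the fold of Cflar was 1.16 in place of 1.21 against buffer, 0.988 in place of 1.13 against saline and 1.18 in place of 1.07 between the controls.

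Within a library, the FPKM of Pycard was 1.91 times that of Casp1 in buffer, 1.03 times in saline and 2.08 times in STZ, and the FPKM of Ripk3 was 5.75, 6.12 and 8.69 times that of Mlkl. The FPKM of Fadd was 6.13, 8.04 and 5.02 times that of Tradd. These ratios rest on few reads for Pycard, Casp1 and Mlkl.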
